A study of Glycine soja with 14 samples.

Results

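WRKY transcription factors are plant regulators named for a short conserved stretch of amino acids in their DNA-binding domain. They bind W-box elements in the promoters of their target genes, and many are themselves switched on or off quickly by stress. In leaves the family is known for roles in defence against pathogens, in responses to salt, drought and cold, and in senescence. The number in the name of a soybean WRKY gene does not point to the Arabidopsis gene of the same number.

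The WRKY genes described here are all soybean probe sets whose only gene symbol in the array's annotation starts with WRKY. That gave 103 of the 37593 soybean probe sets on the array, for 52 of the 6029 genes with a single symbol. A further 6 probe sets carry a WRKY symbol together with another symbol and were left out of the counts. Of the 52 genes, 26 had 1 probe set and 26 had several, and each gene was represented by the one whose mean across the 14 arrays was highest. The representatives were 43 probe sets of the plain kind and 9 whose names mark possible matches to more than 1 transcript, 3 each with the endings _a_at, _s_at and _x_at. No sequences or genome positions of these genes are printed, because no table used here pairs them with the probe sets.

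The study followed leaves of Glycine soja, the wild species closest to cultivated soybean, after seedlings of line G07256 were moved to alkaline solution. The plants were 21 days old, grew hydroponically in dilute Hoagland's nutrient solution with 12 h light and 12 h dark periods, and were treated with 50 mM NaHCO3 at pH 8.5, which adds sodium and bicarbonate as well as alkalinity. Leaves were taken after 0.5, 1, 3, 6, 12 and 24 h in NaHCO3, and at 0 h without treatment. Each of the 7 times had 2 arrays, each with RNA from the pooled leaves of 3 plants, 14 arrays in all. The groups given here have no untreated plants at the later times, so time in NaHCO3, transfer to new solution and time of day cannot be told apart. The same 2 arrays of 0 h serve every comparison against 0 h. The samples are bulk leaf RNA, in which fewer cells of a type and less RNA per cell cannot be told apart.

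Values are array intensities, scaled so that the median soybean probe set read 56.4 on each array. Changes are differences of log2(intensity + 16), the later time minus the earlier, with the standard error (SE) of the fit, and they understate the change of dim genes. A gene was called where its p from limma, adjusted by Benjamini-Hochberg over all 37593 soybean probe sets, was under 0.05. Background on each array was the 95th percentile of 23350 probe sets for a water mould and a nematode, and ranged from 14.8 to 28.6. Between 66.1 and 77.2% of soybean probe sets lay above it, and 2 arrays per time limit the precision. Leaf markers, the genes of photosynthesis, were above background on every array for 7 of 7 genes. Their summed intensity ranged from 21400 to 40300, with means of 22900 at 12 h and 40000 at 0 h.

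Most WRKY genes gave a readable signal in these leaves. Of the 52 genes, 29 lay above background on all 14 arrays and 18 on some. The other 5 lay above it on none (WRKY25, WRKY29, WRKY38, WRKY62 and WRKY63). Mean intensities ran from 6.24 to 381 with a median of 57.8, at percentile 49.3 of all soybean probe sets. The 5 with the highest mean were WRKY4 at 381, WRKY27 at 247, WRKY33 at 212, WRKY56 at 159 and WRKY54 at 146. Probe sets differ in how strongly they bind, so these intensities do not rank the genes by transcript amount. Of these 5, WRKY54 was the one that passed the test over the whole course. WRKY4 and WRKY33 were called at no time, with changes against 0 h of -0.39 ± 0.14 to 0.00 ± 0.14 for WRKY4 and -0.14 to 0.49 for WRKY33 (SE 0.26 each).

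Over the whole course, 14 of 52 WRKY genes (26.9%) passed limma's F test over the 6 later times, against 30.4% of all soybean probe sets. They were WRKY2, WRKY8, WRKY9, WRKY21, WRKY28, WRKY34, WRKY41, WRKY43, WRKY48, WRKY54, WRKY55, WRKY57, WRKY58 and WRKY60. Of these, 10 (19.2%) were also called at 1 or more single times against 0 h, where the share of all soybean probe sets was 29.9%. No call at a single time came in the first 3 h. At 0.5 h 0 WRKY genes were called, against 2.54% of all soybean probe sets. At 1 h 0 were called against 0%, and at 3 h 0 against 2.46%. Unadjusted p in limma was under 0.05 for 15 WRKY genes at 0.5 h (28.8%, against 20.4% of all soybean probe sets). It was under 0.05 for 5 at 1 h (9.62%, against 9.88%) and for 13 at 3 h (25%, against 20.6%). Later, unadjusted p in limma was under 0.05 for 13 at 6 h (25%, against 24.6%) and for 9 at 24 h (17.3%, against 22.9%). At 6 h 6 WRKY genes were called, at 12 h 3 and at 24 h 3. The shares of all soybean probe sets at those times stand beside each result below, and the difference between a WRKY share and the share of all was not tested.

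**Figure D1:**
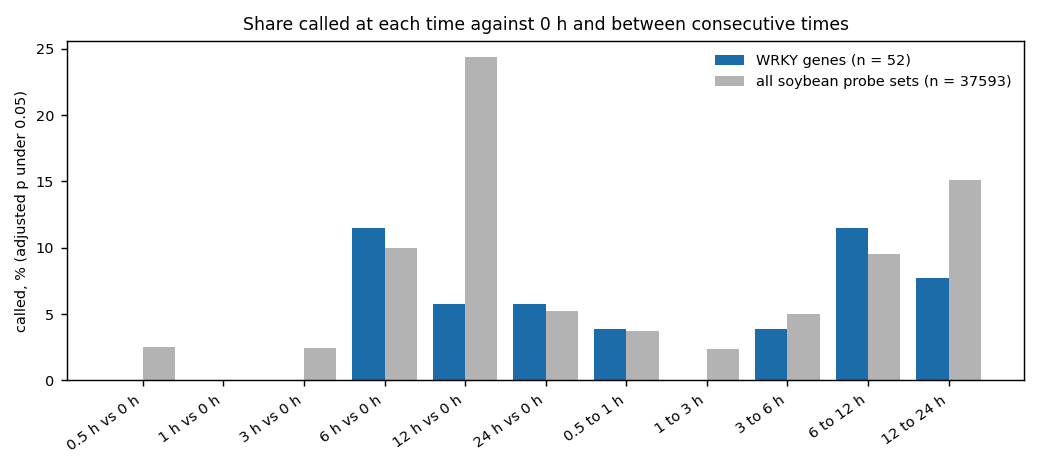
Share of the 52 WRKY genes and of all 37593 soybean probe sets called (1 probe set per WRKY gene, adjusted p under 0.05, limma) at each later time against 0 h and at each step between consecutive times, in %. The WRKY bars are close to the grey bars at 6 h (11.5 and 9.99%) and 24 h (5.77 and 5.21%), and lower at 12 h (5.77 and 24.4%).

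Individual genes differed in their courses. The most marked was a highest mean at 6 h, seen in WRKY43, WRKY60, WRKY57, WRKY58 and WRKY41. WRKY57 was about as high at 24 h (mean 89.4, against 94.6 at 6 h), and WRKY58 was not called at 6 h. In WRKY43, WRKY60, WRKY57 and WRKY58 6 h replicate 1 was brighter than replicate 2, and the dependence on single arrays is given with the genes below. At 6 h 5 WRKY genes rose against 0 h (WRKY43, WRKY60, WRKY57, WRKY41 and WRKY8) and WRKY2 fell. That is 9.62% higher and 1.92% lower, where 4.16% of all soybean probe sets were higher, 5.84% lower and 9.99% called in either direction. The median change of the 52 genes at 6 h was 0.23, beside -0.02 for all soybean probe sets. Of the 52 changes 34 lay above 0, a count not made for all soybean probe sets. The WRKY median of replicate 1 minus replicate 2 was 0.24 at 6 h and 0.15 at 0 h. The median change at 6 h is thus no larger than the gap between the 6 h arrays.

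WRKY43 had the largest change of the 52 against 0 h. Its intensities were 34.8 and 35.8 at 0 h, 46.5 and 144 at 0.5 h, 34.0 and 46.9 at 1 h, 109 and 110 at 3 h, 350 and 199 at 6 h, 33.0 and 42.4 at 12 h and 31.7 and 84.6 at 24 h. Both 6 h arrays were above every other array, and both 12 h arrays were close to the 0 h values. WRKY43 averaged 274 ± 107 at 6 h and 35.3 ± 0.669 at 0 h (SD, n = 2 each), a rise of 2.45 ± 0.42 (limma, adjusted p = 0.00455). Without the brighter 6 h array, replicate 1, the adjusted p was 0.0515.

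WRKY60 followed the same course from a higher start. It read 80.9 and 72.1 at 0 h, 105 and 213 at 0.5 h, 84.5 and 79.7 at 1 h, 162 and 218 at 3 h, 288 and 210 at 6 h, 46.1 and 76.4 at 12 h and 97.5 and 138 at 24 h. Intensities at 3 and 6 h lay well above 0 h on all arrays, and 1 of the 0.5 h arrays was as bright. The rise at 6 h was 1.5 ± 0.30 (adjusted p = 0.00956 in limma, 0.0881 without 6 h replicate 1). A second probe set of WRKY60, read on the same arrays, also rose, with 88.9 and 62.9 at 6 h against 31.9 and 24.9 at 0 h. Its change was 1.04 ± 0.24 (limma, adjusted p = 0.0183).

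WRKY57 was dim until 3 h and again at 12 h, and bright at 6 and 24 h. Its intensities were 29.7 and 25.9 at 0 h, 30.3 and 46.2 at 0.5 h, 34.2 and 16.2 at 1 h, 26.7 and 14.9 at 3 h, 132 and 57.2 at 6 h, 15.5 and 23.8 at 12 h and 63.5 and 115 at 24 h. The 4 arrays of 6 and 24 h lay above all others. The rise at 6 h was 1.25 ± 0.35 (limma, adjusted p = 0.0466), with 1 of the 0 h arrays not above background. This call ended without any 1 of 7 arrays and reached an adjusted p of 0.320 without 6 h replicate 1. At 24 h the change was 1.22 ± 0.35 (limma, adjusted p = 0.0684).

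WRKY41 alternated over the course. It read 48.9 and 34.0 at 0 h, 70.6 and 65.7 at 0.5 h, 64.8 and 48.5 at 1 h, 30.6 and 34.3 at 3 h, 72.6 and 84.4 at 6 h, 37.6 and 43.2 at 12 h and 55.1 and 62.8 at 24 h. The 3 h arrays were the lowest or level with the lowest and the 6 h arrays the highest. It rose by 0.73 ± 0.17 at 6 h (limma, adjusted p = 0.0199), which ended without either 6 h array or without 0 h replicate 2.

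WRKY58, whose maximum was also at 6 h, passed the F test (adjusted p = 0.0392 in limma) but not the test at 6 h. It read 396 and 155 at 6 h against 113 and 62.6 at 0 h, a change of 1.40 ± 0.48 (limma, adjusted p = 0.0916). Replicate 1 at 6 h was the brightest of all 14 arrays, and replicate 2 was still above both 0 h arrays.

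**Figure D2:**
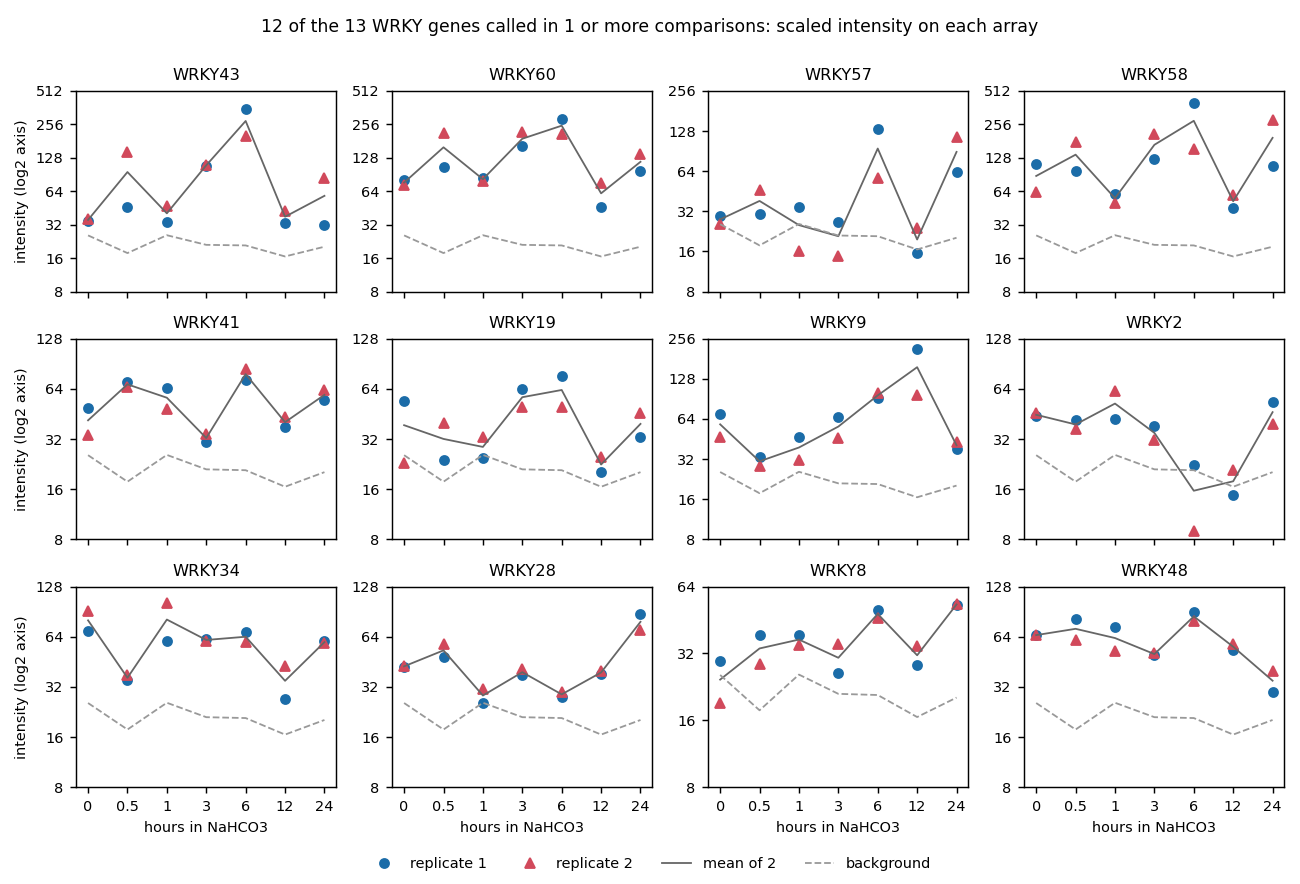
Scaled intensity (log2 axis) of 12 of the 13 WRKY genes called in 1 or more comparisons, on each of the 14 arrays, against hours in NaHCO3. Points are replicates 1 and 2, the solid line is their mean and the dashed line the mean background. WRKY43 reached 350 and 199 at 6 h and was back to 33.0 and 42.4 at 12 h. WRKY55, the thirteenth, lay near or below background and is not drawn.

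The fall after 6 h was the step with most WRKY calls. From 6 to 12 h 6 of 52 genes fell and 0 rose. With 1 probe set per gene this is 11.5% of the WRKY genes, all of them lower, against 9.51% of all soybean probe sets in either direction and 5.38% lower. Over all 103 WRKY probe sets, 12 (11.7%) were called at this step. Of these, 9 were lower (8.74%) and 3 higher (2.91%, against 4.13% of all soybean probe sets). WRKY43 fell by 2.39 ± 0.42 (12 h minus 6 h, limma, adjusted p = 0.00624), WRKY60 by 1.79 ± 0.30 (0.00438) and WRKY58 by 1.97 ± 0.48 (0.0264). The other 3 falls were WRKY57 by 1.55 ± 0.35 (limma, adjusted p = 0.0195), WRKY41 by 0.74 ± 0.17 (0.0193) and WRKY19 by 1.02 ± 0.28 (0.0454). WRKY19 read 20.2 and 24.8 at 12 h against 76.6 and 49.5 at 6 h, with 54.4 and 23.1 at 0 h, and its call ended without any 1 of 12 arrays. The fall of WRKY60 held without each array in turn, with adjusted p of at most 0.0453. That of WRKY43 ended without 6 h replicate 1 (0.0592). With or without a call, both 12 h arrays lay below both 6 h arrays for 23 WRKY genes (44.2%), against 27.4% of all soybean probe sets.

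The step into 6 h had fewer calls. From 3 to 6 h WRKY41 rose by 0.96 ± 0.17 (limma, adjusted p = 0.00888) and WRKY57 by 1.52 ± 0.35 (0.0328). These 2 of 52 genes are 3.85%, against 4.97% of all soybean probe sets in either direction and 2.03% higher. WRKY43, WRKY60 and WRKY58 were already bright at 3 h and made no called step there.

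Counted without a test, more WRKY genes had their highest mean at 6 or 3 h than at other times. The highest of the 7 means was at 6 h for 12 genes (23.1%, against 12.4% of all soybean probe sets) and at 3 h for 11 (21.2%, against 9.29%). The lowest was at 1 h for 14 genes (26.9%, against 12.9%) and at 6 h for 2 (3.85%, against 13.6%). At 6 h both arrays lay above both 0 h arrays for 20 WRKY genes (38.5%, against 23.1% of all soybean probe sets) and below them for 11 (21.2%, against 28.2%). Medians of the 52 genes were 0.06 at 0.5 h, -0.10 at 1 h, -0.01 at 3 h, 0.23 at 6 h, -0.01 at 12 h and 0.12 at 24 h, where those of all soybean probe sets ran from -0.04 to -0.01. The sign of the WRKY median at 12 h turned under quantile normalization (0.02) and without scaling (0.04), and at 3 h without scaling (0.06).

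**Figure D3:**
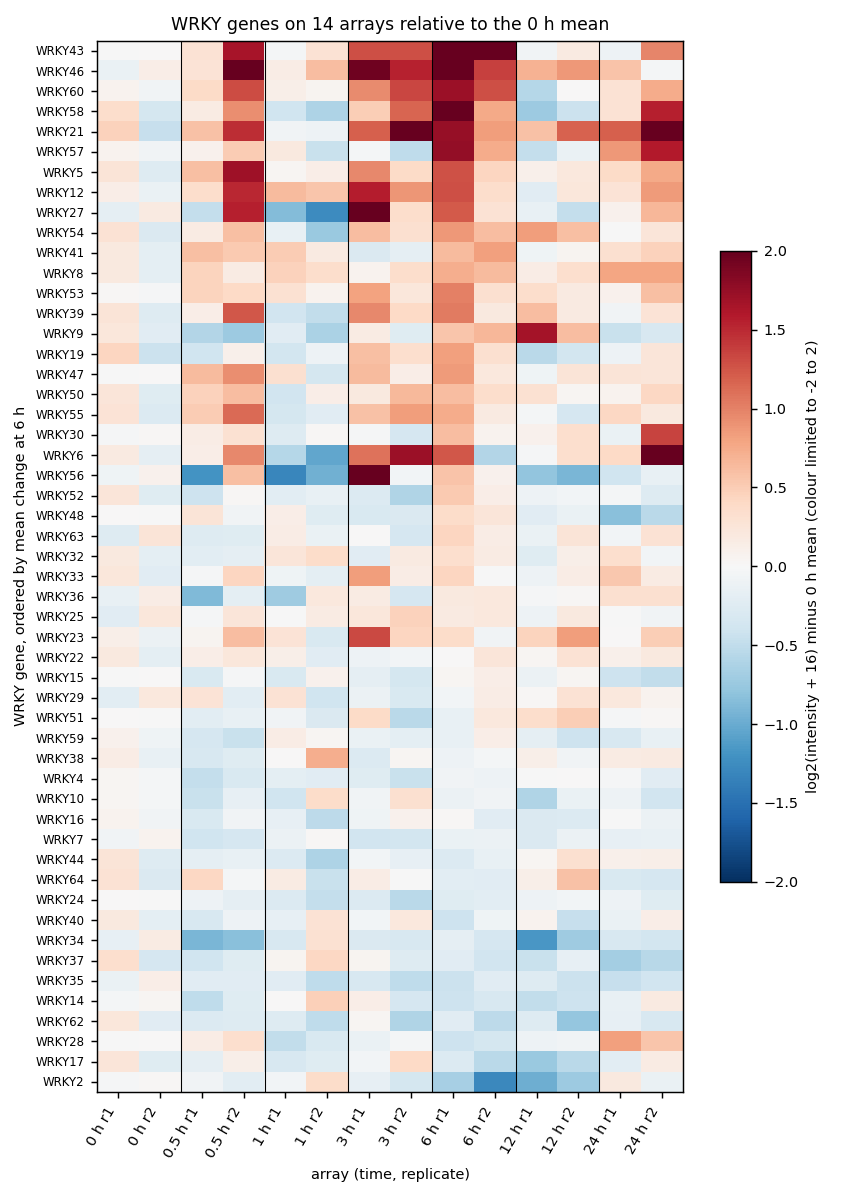
Change of each of the 52 WRKY genes (rows, ordered by mean change at 6 h) on each of the 14 arrays (columns) relative to its 0 h mean, as log2(intensity + 16), with the colour limited to -2 to 2. The upper rows are red on both 6 h arrays, and for several genes only 1 array of the 0.5 or 3 h pair is red.

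WRKY2 was the one WRKY gene lower at 6 h, and it stayed low at 12 h. It read 43.9 and 45.6 at 0 h, 41.6 and 36.7 at 0.5 h, 42.3 and 62.2 at 1 h, 38.3 and 31.4 at 3 h, 22.4 and 8.93 at 6 h, 14.8 and 20.9 at 12 h and 53.2 and 39.6 at 24 h. All 4 arrays of 6 and 12 h lay below every other array, and 1 array of each of these times was above background. It fell by 0.97 ± 0.22 at 6 h (limma, adjusted p = 0.0181) and by 0.85 ± 0.22 at 12 h (0.0168). From 12 to 24 h it rose by 0.88 ± 0.22 (limma, adjusted p = 0.0201). Each fall ended without any 1 of 3 arrays.

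At 12 h, the time with most calls over the whole array, few WRKY genes were called. There were 1 rise (WRKY9, 1.92%) and 2 falls (WRKY2 and WRKY34, 3.85%), together 5.77%, against 11.4% higher, 13% lower and 24.4% in either direction among all soybean probe sets. Unadjusted p in limma was under 0.05 for 5 WRKY genes (9.62%, against 36.8% of all soybean probe sets). These counts take 1 probe set per gene. Over all 103 WRKY probe sets, 13 (12.6%) were called at 12 h, 11 higher and 2 lower. Of the 11, 4 were called against a 0 h level not above background. The photosynthesis markers were also lower at this time, 6 of 7 by the same test. The nodule and root markers summed to 266 at 12 h and 117 at 0 h, with 1 of their 4 genes above background on all arrays. The highest sum, 368, was that of 12 h replicate 1. Of the 4 genes, 1 was called higher at 12 h and 0 lower, and their median change was -0.11. The part of both marker lists in the WRKY values was not tested.

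WRKY9 reached its maximum at 12 h. It read 70.1 and 46.6 at 0 h, 33.1 and 28.5 at 0.5 h, 46.9 and 31.3 at 1 h, 65.9 and 46.4 at 3 h, 92.4 and 100 at 6 h, 216 and 97.2 at 12 h and 38.2 and 43.1 at 24 h. Replicate 1 at 12 h stood well above all other arrays, while replicate 2 was level with 6 h. The rise at 12 h was 1.14 ± 0.29 (limma, adjusted p = 0.0165, and 0.126 without 12 h replicate 1). By 24 h WRKY9 had fallen from its 12 h level by 1.52 ± 0.29 (limma, adjusted p = 0.00516), and this step held without each array in turn (at most 0.0446). The other 2 probe sets of WRKY9 gave 0.86 ± 0.31 and 0.58 ± 0.34 at 12 h and were not called (limma, adjusted p = 0.0621 and 0.245).

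WRKY34 had low intensities at 0.5 and 12 h. It read 69.5 and 91.0 at 0 h, 35 and 37.6 at 0.5 h, 60.3 and 102 at 1 h, 62.2 and 60.2 at 3 h, 68.6 and 59.4 at 6 h, 26.9 and 42.7 at 12 h and 60.4 and 58.4 at 24 h. No array of 0.5 or 12 h reached the lowest of the other times. It fell by 0.93 ± 0.21 at 12 h (limma, adjusted p = 0.00966, and 0.0817 without 12 h replicate 1). At 0.5 h the change was -0.87 ± 0.21 (limma, adjusted p = 0.0578, and 0.0367 without either 1 h array).

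At 24 h, the same clock hour as 0 h, WRKY8 and WRKY28 were higher and WRKY48 was lower than at 0 h. These are 3.85% higher, 1.92% lower and 5.77% in all, against 2.22% higher, 2.99% lower and 5.21% in either direction among all soybean probe sets. WRKY28 had the lowest p of the WRKY genes in the F test (limma, adjusted p = 0.00208). It read 42.0 and 43.0 at 0 h, 48.5 and 57.5 at 0.5 h, 25.6 and 31.2 at 1 h, 37.5 and 40.9 at 3 h, 28.0 and 29.7 at 6 h, 38.3 and 39.8 at 12 h and 87.5 and 69.8 at 24 h. Both 24 h arrays were above all others, and both arrays of 1 and 6 h were below all others. The rise was 0.69 ± 0.14 against 0 h (limma, adjusted p = 0.0247) and 0.77 ± 0.14 against 12 h (0.00353). The step from 12 h held without each array in turn, while the call against 0 h ended without any 1 of the 4 arrays of 0 and 24 h. A second, dimmer probe set of WRKY28 changed by 0.01 ± 0.25 at 24 h (limma, adjusted p = 0.991).

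WRKY8 was called at both 6 and 24 h. It read 29.7 and 19.1 at 0 h, 38.6 and 28.8 at 0.5 h, 38.9 and 35 at 1 h, 26.0 and 35.2 at 3 h, 50.2 and 46.2 at 6 h, 28.4 and 34.4 at 12 h and 53.1 and 53.2 at 24 h. The 4 arrays of 6 and 24 h were the highest, and 0 h replicate 2 was not above background. It rose by 0.68 ± 0.17 at 6 h (limma, adjusted p = 0.0285) and by 0.79 ± 0.17 at 24 h (0.0293), and each call ended without any 1 of 3 arrays, 0 h replicate 2 or either array of the later time (adjusted p up to 0.156 at 6 h and 0.145 at 24 h).

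WRKY48 read 65.6 and 65.3 at 0 h, 81.5 and 61.3 at 0.5 h, 73.1 and 52.6 at 1 h, 49.9 and 50.8 at 3 h, 89.5 and 80 at 6 h, 53.6 and 57.9 at 12 h and 29.7 and 40 at 24 h. The 24 h arrays were the lowest of the 14. It fell by 0.69 ± 0.17 at 24 h (limma, adjusted p = 0.0439), a call that ended without any 1 of 12 arrays. A dimmer probe set of the same gene was called higher at 6 h, with 39.9 and 32 at 6 h against 11.6 and 16.8 at 0 h, the 0 h arrays not above background. It was at least 1.24-fold higher at 6 h (limma, adjusted p = 0.0386), where the representative changed by 0.31 ± 0.17. The remaining probe set of WRKY48 went the other way, with 39.6 and 42.1 at 6 h against 63 and 46.4 at 0 h, and was not called at 6 h.

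From 12 to 24 h 4 WRKY genes were called (7.69%, against 15.1% of all soybean probe sets). WRKY57, WRKY2 and WRKY28 rose (5.77%, against 8.11% higher) and WRKY9 fell (1.92%, against 7.04% lower). The rise of WRKY57 was 1.53 ± 0.35 (limma, adjusted p = 0.0135).

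In the first hours, several WRKY genes were bright on 1 array of a pair and not on the other. From 0.5 to 1 h WRKY28 fell by 0.64 ± 0.14 (limma, adjusted p = 0.0380) and WRKY55 was called lower (0.0436), 3.85% of the genes, against 1.37% lower and 3.75% in either direction among all soybean probe sets. WRKY55 was dim, with 1.71 and 3.31 at 1 h, not above background, against 15.9 and 33.6 at 0.5 h, of which 1 was. No fold is given for it, since the bound that background sets was not above 1. The call of WRKY28 ended without any 1 of 6 arrays, with changes of -0.73 to -0.54 when arrays were left out. That of WRKY55 ended without any 1 of 7 arrays. Without 1 h replicate 1 neither fall was called, and the calls at this step were rises of other genes. From 1 to 3 h 0 genes were called in limma (2.39% of all soybean probe sets). Unadjusted p in limma was under 0.05 for 19 (36.5%, against 21.1% of all soybean probe sets). Both 3 h arrays lay above both 1 h arrays for 22 WRKY genes (42.3%, against 20.7%). Changes of at least 2-fold were seen there in 9 genes (17.3%, against 2.86%), all higher at 3 h, although none passed the adjusted test.

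WRKY27, which in soybean is known to raise tolerance to salt and drought, varied most between replicates. Its intensities were 116 and 153 at 0 h, 91.4 and 423 at 0.5 h, 66.3 and 46.5 at 1 h, 1320 and 174 at 3 h, 334 and 166 at 6 h, 119 and 90.9 at 12 h and 142 and 220 at 24 h. The 2 brightest values came from 0.5 h replicate 2 and 3 h replicate 1, and in each pair the other replicate was near 0 h. The change was 1.75 ± 0.79 at 3 h (limma, adjusted p = 0.236) and 2.81 ± 0.79 from 1 to 3 h (0.0806).

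WRKY56 had the same arrays high, with 641 and 139 at 3 h and 53.8 and 229 at 0.5 h, against 135 and 155 at 0 h. Its changes were 0.99 ± 0.61 at 3 h (limma, adjusted p = 0.389) and -0.30 ± 0.61 at 0.5 h (0.823). WRKY46 read 32.5 and 172 at 0.5 h, 139 and 100 at 3 h and 148 and 87.9 at 6 h, against 20.7 and 27.8 at 0 h. Its 6 h arrays did not overlap 0 h, and the change of 1.70 ± 0.49 just missed the threshold (limma, adjusted p = 0.0504).

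WRKY6 and WRKY12 were bright at 3 h on both arrays. WRKY6 read 80.4 and 132 at 3 h against 35.3 and 23.9 at 0 h, a change of 1.40 ± 0.59 (limma, adjusted p = 0.209). At 1 h, with 14.5 and 6.1, it was not above background, and 3 h was at least 2.87-fold higher than 1 h (limma, adjusted p = 0.0720). WRKY12 read 111 and 62.5 at 3 h against 30.8 and 23 at 0 h, a change of 1.22 ± 0.40 (limma, adjusted p = 0.119). In both genes the 3 h arrays did not overlap those of 0 h.

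**Figure D4:**
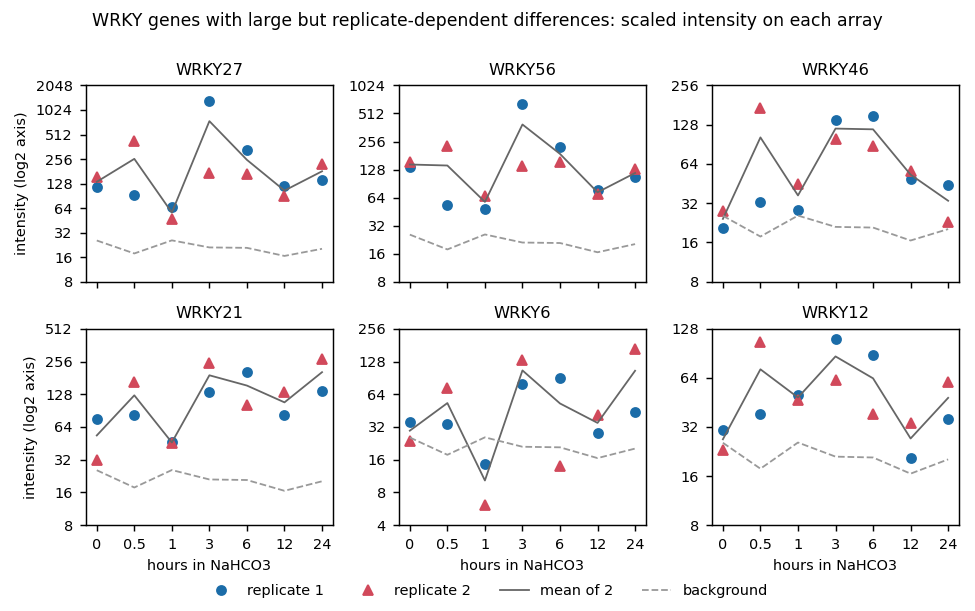
Scaled intensity (log2 axis) of 6 WRKY genes with large differences that were not called at any single time, on each array against hours in NaHCO3, drawn with the same marks as the plot of called genes. WRKY27 read 1320 in replicate 1 and 174 in replicate 2 at 3 h, and 91.4 and 423 at 0.5 h.

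Replicates differed by more than log2 1 for 7 WRKY genes at 0.5 h (13.5%, against 1.12% of all soybean probe sets), each higher in replicate 2: WRKY5, WRKY12, WRKY27, WRKY39, WRKY43, WRKY46 and WRKY56. At 0 h and 1 h the counts were 0 (against 3.11 and 1.36% of all soybean probe sets). They were 2 at 3 h (3.85%, against 2.94%) and 3 at 6 h (5.77%, against 0.886%). At 12 h the count was 1 (1.92%, against 2.42%) and at 24 h 4 (7.69%, against 0.527%). Those at 24 h were WRKY6, WRKY30, WRKY43 and WRKY58, of which WRKY30 lay above background on 1 of the 14 arrays. The SD of the replicate difference was 0.563 for the 52 genes and 0.290 for all soybean probe sets at 0.5 h, and 0.610 and 0.424 at 3 h. In the same order it was 0.401 and 0.365 at 1 h, 0.452 and 0.304 at 6 h and 0.456 and 0.285 at 24 h. At 0 h and 12 h the WRKY genes had the lower SD, 0.347 against 0.439 for all at 0 h and 0.316 against 0.389 at 12 h. WRKY5 was not above background at 0 h (14 and 5.17) and read 22.2 and 65.7 at 0.5 h, at least 1.34-fold higher at 0.5 h (limma, adjusted p = 0.116).

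WRKY21 and WRKY54 passed the F test without a call at any single time. Overexpressed in Arabidopsis, soybean WRKY21 is known to raise tolerance to cold and WRKY54 tolerance to salt and drought. WRKY21 read 75.1 and 31.9 at 0 h, 83.4 and 167 at 0.5 h, 46.6 and 45.6 at 1 h, 135 and 248 at 3 h, 206 and 102 at 6 h, 82.8 and 133 at 12 h and 136 and 273 at 24 h. From 3 h on, every array was above both 0 h arrays, and the 0 h arrays differed from each other by more than a factor of 2. The change was 1.60 ± 0.45 at 3 h (limma, adjusted p = 0.0839) and 1.67 ± 0.45 at 24 h (0.0568). The probe set behind these values has the ending _x_at, and the other probe set of WRKY21 read 1.34 to 12.8 and lay above background on no array. The 24 h change passed without 0 h replicate 1 (2.13 ± 0.52, 0.0466) and without scaling (1.72 ± 0.45, 0.0495).

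WRKY54 read 216 and 179 at 6 h and 212 and 176 at 12 h, against 140 and 87.6 at 0 h. All 4 of these arrays were above the 0 h arrays. Changes were 0.74 ± 0.25 at 6 h (limma, adjusted p = 0.0909) and 0.72 ± 0.25 at 12 h (0.0597). The 12 h change passed under quantile normalization (0.79 ± 0.25, 0.0390).

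Different probe sets of 1 WRKY gene did not always give the same result. Of the 26 genes with several, 7 were called against 0 h by the representative alone or by other probe sets alone. In all 10 genes were called at any time by the representative but 15 by any probe set. The difference was greatest at 12 h, where any probe set gave 8 genes and the representative 3. Of the 13 probe sets called at 12 h, 9 lay above background on 1 or more arrays of both times, 7 of them higher and 2 lower, for 7 genes.

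WRKY4 was the clearest case. Its representative read 424 and 429 at 12 h against 437 and 416 at 0 h, a change of 0.00 ± 0.14. The next brightest read 273 and 296 at 12 h against 165 and 179 at 0 h and rose by 0.68 ± 0.13 (limma, adjusted p = 0.00437). Another read 130 and 123 against 52.8 and 69.0 and rose by 0.90 ± 0.17 (0.00297). One more read 77.9 and 84.6 against 49.1 and 48.0 and rose by 0.59 ± 0.19 (0.0462). The dimmest of the 5 was called too (limma, adjusted p = 0.0428), but it read 17.6 and 13.8 against 6.07 and 9.24, lay above background on 1 array of the 14 and allows no fold. So 3 of 5 probe sets of WRKY4 rose on arrays that were all above background, and the brightest was not called.

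WRKY34 had probe sets called in opposite directions, 1 of them dim. While its representative fell at 12 h, the dim one read 26.1 and 38.2 at 12 h against 11.3 and 3.07 at 0 h, where it was not above background. It was at least 1.15-fold higher at 12 h (limma, adjusted p = 0.0312), and lay above background on 4 of 14 arrays. WRKY51 (0.84 ± 0.20), WRKY23 (0.91 ± 0.30) and WRKY59 (0.60 ± 0.17) each had 1 probe set that rose at 12 h, while their representatives were not called. WRKY36 and WRKY51 also had 1 probe set each called higher against a 0 h level not above background. That of WRKY36 read 43.6 and 28.6 at 12 h against 8.94 and 4.59 at 0 h, at least 1.24-fold higher (limma, adjusted p = 0.0165). That of WRKY51 read 15.5 and 22.5 against 9.09 and 4.92 and allows no fold. The WRKY59 probe set had also risen at 3 h, by 0.85 ± 0.17 (limma, adjusted p = 0.0341), with 83.7 and 98 at 3 h against 39.6 and 47.2 at 0 h. Which transcripts these probe sets share was not tested.

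**Figure D5:**
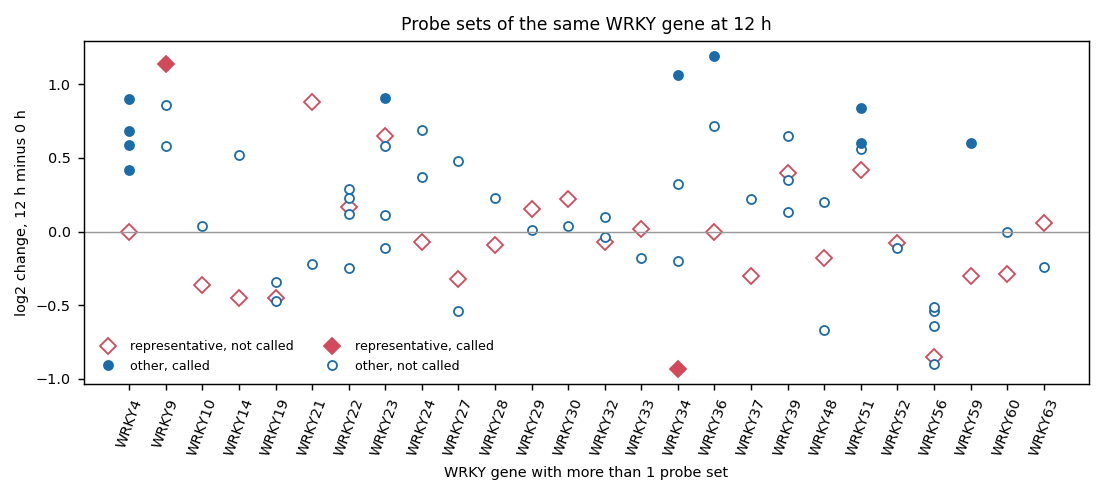
Change at 12 h minus 0 h, as log2(intensity + 16), of every probe set of the 26 WRKY genes with more than 1. Diamonds are representatives, circles the other probe sets, and filled marks were called (adjusted p under 0.05, limma). WRKY4 has 4 filled circles above 0 and its diamond at 0.00, and WRKY34 has a filled mark on each side of 0. At 0 h 4 of the filled circles, 1 each of WRKY4, WRKY34, WRKY36 and WRKY51, were not above background, so their plotted sizes are not measured changes.

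For the 3 WRKY genes with the lowest F test p, the named genes with the most similar mean course over the 7 times were found among 396 that passed the F test, as a description that rests on 7 means from the same arrays. WRKY60 was most like WRKY43 (Pearson r = 0.942), WRKY58 (0.909) and NRP-A (0.881). WRKY28 was most like RAV (0.948), SOD1 (0.934) and GASA24 (0.909). WRKY9 was most like OAS-TL1 (0.991), GSTU28 (0.969) and FAT1 (0.968).

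Genes that act around WRKY factors were read by symbol for comparison, with the background shares given above. MAP kinases phosphorylate some WRKY factors, and of 3 genes MAPK2 (0.68 ± 0.12 at 12 h, limma, adjusted p = 0.00235) and MPK4B (0.65 ± 0.17, 0.0195) rose while MAPKK2 was at -0.07. Of 20 genes with symbols that start like those of defence genes, 0 rose and 2 fell at 6 h and 0 rose and 4 fell at 12 h. Their medians were -0.29 and -0.38 at these times. The list was matched by the start of the symbol and not by function, so a place on it, as of SGT2 and SGT3, shows no role in defence. It also holds CHI1A, CHI1B1, CHI2-A, CHI3A1, CHI4A and FLS1, names used in soybean for enzymes of flavonoid synthesis. Its counts and medians are therefore partly of flavonoid genes. The 12 h falls were CHI1B1, EDS1-2, EDS5 and FLS1, of which EDS1-2 and EDS5 are named for Arabidopsis genes of salicylic acid defence. Of other stress regulators, 4 of 15 NAC genes rose and 1 fell at 12 h, with a median of 0.64, as did 10 and 22 of 65 MYB genes (median -0.26) and 6 and 10 of 58 BZIP genes (median -0.04). At the same time 3 of 10 HSF genes rose and 0 fell, the 1 LBD gene fell, and 0 of 3 ERF (median 0.18) and 0 of 6 DREB genes (median -0.09) were called in limma, with unadjusted p under 0.05 for 0 of either. At 6 h the rises and falls were 3 and 1 for NAC, 6 and 12 for MYB and 2 and 3 for BZIP, beside 5 and 1 of the 52 WRKY genes, and at 24 h they were 2 and 0 for NAC, 7 and 1 for MYB and 0 and 4 for BZIP, beside 2 and 1 of the WRKY genes.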

How the data were processed

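Per the labels' protocols, biotinylated cRNA from total leaf RNA was measured on Affymetrix arrays, with 1 colour. The authors deposited 1 linear intensity per probe set and array, but for their software and normalization nothing was given in the sources used here. There were 61170 probe sets in the table, of which 227 control and ribosomal RNA ones were left out. Each array was scaled to the common soybean median, and log2(value + 16) was fitted with limma 3.58.1 in R 4.3.3 (7 group means, 14 arrays, lmFit and eBayes, 7 residual and 4.24 prior degrees of freedom, two-sided). The labels call the arrays of a time replicates. The p-values rest on the spread between replicates, pooled over all 7 times for each probe set, and not on that of the times compared alone. Replicate numbers were not taken to pair samples across times. Replicate differences correlated between times at -0.219 to 0.226 across probe sets, which cannot settle whether samples were paired. Summed intensity per array was 7413137 to 8230026.

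A level was given as at least N-fold where all arrays of 1 time were not above background: the bright mean over the dim mean, with each dim array at the higher of background and its own value. Where that bound was not above 1, no fold was given. Gene names come from the platform's annotation, in which 8677 soybean probe sets have 1 symbol, 370 several and 28546 none. Named were WRKY genes called in the F test, at a time or between times, the 5 brightest, those never above background, those with disagreeing probe sets, those with a replicate difference over log2 1 and the most similar genes. Genes discussed for replicate differences were chosen after their values were seen. Marker and comparison lists were symbol starts, and none matched GRAS or BHLH. Of 37 seed markers, 14 were never above background, and their sum was 6580 to 10100. The members, lists and tests were chosen with earlier results of these data known. The fit was tested on simulated data. Alternatives were other scalings, pseudocounts, a dim filter, a replicate block, only the groups compared, trend and robust settings, any probe set, a stricter threshold and each array left out. Fits without both 0.5 h and without both 3 h arrays were chosen after seeing the data.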

Additional observations from a re-analysis of the deposited data

Results flagged for a closer look

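The steps between consecutive times test whether the change against 0 h differed from 1 time to the next, and 14 WRKY steps passed in limma. From 0.5 to 1 h the differences were -0.64 for WRKY28 and -1.10 for WRKY55, the second as fitted against a 1 h level not above background, for which no fold can be given. From 3 to 6 h they were 0.96 for WRKY41 and 1.52 for WRKY57. From 6 to 12 h they were -2.39 for WRKY43, -1.97 for WRKY58, -1.79 for WRKY60, -1.55 for WRKY57, -1.02 for WRKY19 and -0.74 for WRKY41. From 12 to 24 h they were 1.53 for WRKY57, 0.88 for WRKY2, 0.77 for WRKY28 and -1.52 for WRKY9. WRKY57 is the one gene with 3 such steps, and its changes against 0 h were -0.27 at 3 h, 1.25 at 6 h, -0.30 at 12 h and 1.22 at 24 h.

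Among the 6 probe sets annotated to a WRKY gene together with another gene, which the counts above leave out, the one shared by WRKY61 and WRKY21 passed the F test (limma, adjusted p = 0.0361). Its change at 24 h was 1.77 (limma, adjusted p = 0.0560), near the 1.67 of the WRKY21 representative. The names of these probe sets differ only in the ending, and both were read on the same arrays, so this is no independent measurement. Whether the signal comes from WRKY61 or WRKY21 was not tested.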

How the results depend on the processing

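No call against 0 h or between times reversed its direction under the alternatives that refit the same probe sets. The direction of changes without a call was not compared, and those close to 0 can turn sign. Counting any probe set, WRKY34 was called at 12 h in both directions. Of 12 calls against 0 h, 0 held without each array in turn, and of 14 calls between times 3 did. Without 0 h replicate 2, 10 of the 12 ended. Leaving out 1 array moved the count of called WRKY genes over 0 to 1 at 0.5 h and at 3 h, 1 to 6 at 6 h, 0 to 4 at 12 h and 0 to 3 at 24 h, and it stayed 0 at 1 h. The lowest counts came without 6 h replicate 1 at 6 h, without 12 h replicate 1 at 12 h, and without 0 h replicate 2 or either 24 h array at 24 h. Counts for steps ran over 0 to 3 from 0.5 to 1 h (0 without 0.5 h replicate 2 or 1 h replicate 2), 0 to 2 from 1 to 3 h, 0 to 3 from 3 to 6 h (0 without 3 h replicate 1), 1 to 6 from 6 to 12 h (1 without 6 h replicate 1) and 2 to 5 from 12 to 24 h (2 without 12 h replicate 1). The F test gave 9 to 15 genes.

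Fitting only the groups compared gave 3 genes at 6 h, 0 at 24 h, 0 from 0.5 to 1 h and 1 from 3 to 6 h, with fewer arrays to estimate the spread. An adjusted p under 0.01 left 2 genes at 6 h, 1 at 12 h, 0 at 24 h, 0 from 0.5 to 1 h, 1 from 3 to 6 h, 2 from 6 to 12 h, 2 from 12 to 24 h and 5 in the F test. Counting any probe set gave 1 gene at 3 h, 8 at 12 h and 2 from 1 to 3 h. From 6 to 12 h it gave 8 genes, 6 lower and 2 higher. Both log2(value + 1) and log2(value + 64) gave 1 gene from 0.5 to 1 h, and log2(value + 1) gave 1 from 3 to 6 h. The replicate block, whose numbers are not known to pair samples, gave 1 gene from 0.5 to 1 h, where 10 of the 12 calls against 0 h and 12 of the 14 steps held. Without both 0.5 h arrays there was 1 gene at 3 h and 1 from 1 to 3 h, and without both 3 h arrays 1 from 0.5 to 1 h. Where not stated, the cause was not tested. All counts not named moved by at most 1.5 times. Dim genes such as WRKY55, WRKY57 and WRKY2 lie close to background, which limits their fold changes.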
